A study of Homo sapiens with 8 samples.

Results

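H1975 is a human lung adenocarcinoma cell line driven by mutant EGFR. Its open chromatin was mapped with ATAC-seq, which uses a transposase to tag accessible DNA, after treatment with ACBI1 or with its solvent DMSO. These 4 samples, 2 per treatment, are the H1975 samples of a series of 8, and the other 4 are from the lung cancer line HCC44. Per the labels, the genotype of every sample is WT, with no gene named, the cells were treated for 96 h, and the dose of ACBI1 was 1 mM. That dose is high for a degrader and may be a slip of unit in the labels, so it is given only as labelled. Nothing in the labels says that replicates came from separate cultures, so the spread between them may be technical. The deposited data are 1 list of accessible regions (peaks) per sample. No read number is given, so sequencing depth cannot be given, and a missing peak is not a measurement of closed chromatin.

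ACBI1 is a small molecule that brings SMARCA2, SMARCA4 and PBRM1 to a ubiquitin ligase, after which the proteasome destroys them. SMARCA2 and SMARCA4 are the alternative ATPases of the SWI/SNF (BAF) complexes, which slide and evict nucleosomes, and PBRM1 is a subunit of the PBAF form. These complexes are known to hold open many enhancers, often beside factors such as AP-1 and TEAD, whereas many CpG-rich promoters stay open without them. Protein levels of the targets were not analysed here.

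Peaks of the 4 samples that overlapped by at least 1 bp were merged into 48423 regions. A region was called distal when it lay more than 1 kb from either end of every protein-coding gene, and a gene-end region otherwise. A DMSO region had a peak in both DMSO samples. It was called lost when neither ACBI1 sample had a peak there, and retained when all 4 samples did.

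Gene starts that lost their peak were few, and they held a short sequence, TGANTCA, more often than starts that kept it. TGANTCA is the site bound by AP-1 (FOS and JUN dimers), and N stands for any base. RefSeq promoters of GRCh38.p14, from 250 bases before to 50 bases after the start, were matched for 15842 of 20037 protein-coding genes. Of these, 9252 lay over a DMSO region that was lost, retained or present in 1 ACBI1 sample, and 122 of them (1.32%) lay over a lost one. The promoters of FAM25A, BCAR1, CALHM3 and IL1RN are printed as examples of lost starts with a match. FAM25A belongs to a small gene family, BCAR1 encodes the focal adhesion scaffold p130Cas, CALHM3 an ion channel subunit of taste cells, and IL1RN the interleukin-1 receptor antagonist. The promoters of MED27, a subunit of the Mediator complex, and MCC, a cytoplasmic protein named for its mutation in colorectal cancer, are printed because both genes kept the peak at their start while losing nearly all distal regions around it. Each line gives the 250 bases before the start, 5′ to 3′, and capitals mark the AP-1 match.
FAM25A: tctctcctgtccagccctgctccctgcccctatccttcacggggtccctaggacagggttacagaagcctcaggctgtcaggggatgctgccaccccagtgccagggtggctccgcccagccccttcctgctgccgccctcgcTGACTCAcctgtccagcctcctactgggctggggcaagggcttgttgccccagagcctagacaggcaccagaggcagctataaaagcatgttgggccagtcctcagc
BCAR1: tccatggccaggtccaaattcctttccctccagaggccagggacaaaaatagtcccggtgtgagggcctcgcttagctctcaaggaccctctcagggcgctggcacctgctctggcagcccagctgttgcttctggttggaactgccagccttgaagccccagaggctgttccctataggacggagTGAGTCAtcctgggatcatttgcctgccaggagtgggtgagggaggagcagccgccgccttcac
CALHM3: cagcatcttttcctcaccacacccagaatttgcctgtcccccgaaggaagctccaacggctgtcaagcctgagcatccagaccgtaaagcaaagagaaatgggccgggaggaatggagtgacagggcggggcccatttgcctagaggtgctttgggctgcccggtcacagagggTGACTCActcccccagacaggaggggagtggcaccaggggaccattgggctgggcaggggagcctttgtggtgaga
IL1RN: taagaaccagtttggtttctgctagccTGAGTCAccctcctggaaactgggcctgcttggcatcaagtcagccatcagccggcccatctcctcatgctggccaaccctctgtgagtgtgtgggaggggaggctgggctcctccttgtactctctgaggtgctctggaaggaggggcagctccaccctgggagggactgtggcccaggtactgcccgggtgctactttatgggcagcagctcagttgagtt
MED27: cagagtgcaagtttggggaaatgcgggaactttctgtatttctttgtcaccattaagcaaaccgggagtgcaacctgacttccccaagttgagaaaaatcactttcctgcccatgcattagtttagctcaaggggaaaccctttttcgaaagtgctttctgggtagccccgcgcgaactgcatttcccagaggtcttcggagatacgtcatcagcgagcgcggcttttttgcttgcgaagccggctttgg
MCC: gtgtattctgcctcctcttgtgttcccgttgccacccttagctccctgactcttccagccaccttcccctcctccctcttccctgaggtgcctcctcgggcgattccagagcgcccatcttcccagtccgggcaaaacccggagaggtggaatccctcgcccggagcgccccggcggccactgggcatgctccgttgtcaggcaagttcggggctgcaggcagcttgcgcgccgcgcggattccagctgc

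In GRCh38.p14 the FAM25A stretch is chr10:87020044-87020293 on the plus strand, and that of BCAR1 is chr16:75268008-75268257 on the minus strand. The CALHM3 stretch is chr10:103479241-103479490 on the minus strand, and that of IL1RN is chr2:113117721-113117970 on the plus strand. The MED27 stretch is chr9:132079868-132080117 on the minus strand, and that of MCC is chr5:113488454-113488703 on the minus strand. In the 4 lost promoters the match began 107, 64, 76 and 223 bases before the start for FAM25A, BCAR1, CALHM3 and IL1RN, and each match lay inside the lost region. The authors' fold enrichment over background was, with DMSO, 9.05 and 9.08 at FAM25A, 4.10 and 4.34 at BCAR1, 6.66 and 6.23 at CALHM3, and 9.11 and 8.18 at IL1RN. At MED27 it was 7.55 and 7.91 with DMSO against 8.83 and 10.4 with ACBI1. At MCC it was 4.98 and 5.21 with DMSO against 5.11 and 7.02 with ACBI1. The last 2 promoters held 0 AP-1 matches in the stretch printed. Fold enrichment depends on each library's background and is given only to show that the peak was listed.

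An AP-1 match on either strand was present in 32.8% of the 122 promoters over a lost region (40 promoters), in 14.9% of the 134 over a region present in 1 ACBI1 sample, and in 3.88% of the 8996 over a retained region (349 promoters). Among the 6416 promoters with no region in any sample the share was 7.67%, and among all 15842 it was 5.75%. Promoters over lost regions were also poorer in CpG, with a median of 7 CpG in 300 bases against 27 over retained regions, and in G and C, with medians of 58% and 66%. Split at 58% GC, the AP-1 share was 42.9% (63 promoters) against 6.28% (1673 promoters) in the GC-poorer promoters and 22% (59 promoters) against 3.33% (7323 promoters) in the others, lost against retained each time. The TEAD match GGAATG was in 18.9% of lost and 9.98% of retained promoters, and in 11.7% of all. The GC box GGGCGG, the site of SP and KLF factors, was in 43.4% of lost and 75.6% of retained promoters, and in 58.5% of all. The ETS match CCGGAAG was in 1.64%, 21.8% and 14.2%, and the GC-rich palindrome of NRF1 in 2.46%, 13.4% and 8.57%, of lost, retained and all promoters respectively. The CREB site TGACGTCA, which does not contain the AP-1 match, was in 2.46% and 3.53% of lost and retained promoters and 2.59% of all. CCAAT was in 34.4%, 37.7% and 36.4%, and TATAAA in 9.84%, 4.54% and 9.63%, in the same order. A match is a description of these letters and not a bound site, and promoters of neighbouring genes can share a region.

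**Figure D1:**
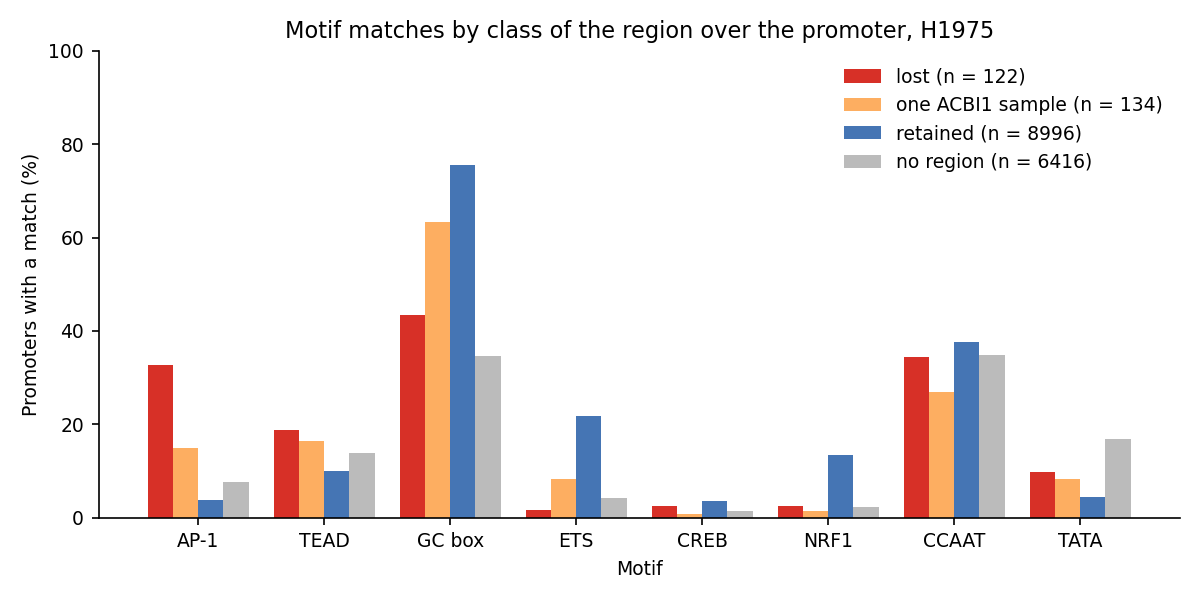
Share of RefSeq promoters (300 bases, vertical axis in percent) that hold each of 8 motifs, by the class of the H1975 region over the promoter (bar colours, with the number of promoters). AP-1 was found in 32.8% of lost and 3.88% of retained promoters, while the GC box, ETS and NRF1 matches were more frequent in retained ones.

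Most genes of the immune lists kept the peak at their start, though a smaller share than among all genes. In the NF-kB and cytokines list 15 of the 19 starts with a peak in both DMSO samples had it in all 4. In the STING and interferon list it was 17 of 19, and over all protein-coding genes 9263 of 9614 (96.3%). Lost starts of immune genes, picked out after their values had been seen, included IL1A, which encodes interleukin-1 alpha, and OAS1, an interferon-induced antiviral enzyme. At IL1A the fold enrichment given by the authors was 8.10 and 9.09 with DMSO, and its promoter held 2 AP-1 matches. At OAS1 it was 7.27 and 7.37, with 0 matches. Both peaks were absent from both ACBI1 lists.

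ACBI1 lists were shorter in distal peaks than DMSO lists. The DMSO lists held 32486 and 30006 distal peaks and the ACBI1 lists 16901 and 11839. The groups did not overlap, and ACBI1 replicate 2 was the lowest. DMSO samples averaged 31246 ± 1754 (SD, n = 2) and ACBI1 samples 14370 ± 3579 (SD, n = 2). On the log2 scale the change was −1.14 and the replicate SD 0.26. The exact permutation test, two-sided, gave p = 0.333, which is the smallest that 2 samples against 2 allow. Gene-end peaks numbered 11039 and 11021 with DMSO against 10781 and 10294 with ACBI1, a log2 change of −0.07 with an SD between replicates of 0.03. Distal peaks therefore made up 74.6% and 73.1% of the DMSO lists and 61.1% and 53.5% of the ACBI1 lists.

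**Figure D2:**
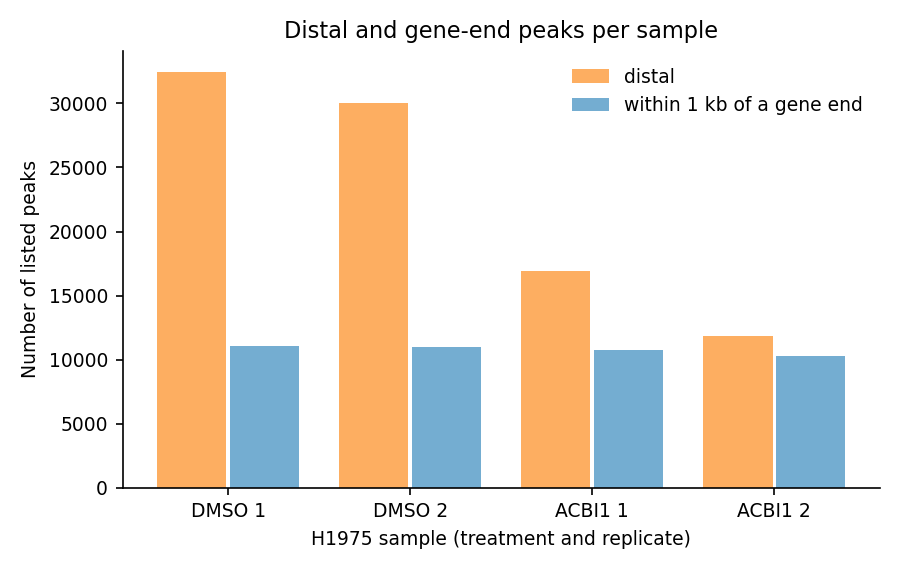
Number of listed peaks (vertical axis) in each H1975 sample, split into distal peaks and peaks within 1 kb of an end of a protein-coding gene; each bar is 1 sample. Distal peaks numbered 32486 and 30006 with DMSO against 16901 and 11839 with ACBI1, and gene-end peaks lay between 10294 and 11039.

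Of 27449 distal DMSO regions, 13786 (50.2%) were lost, 3839 (14%) had a peak in 1 ACBI1 sample and 9824 (35.8%) were retained. ACBI1 replicate 1 lacked 51.0% of them and replicate 2 lacked 63.5%, a mean of 57.2% ± 8.83 (SD, n = 2). As background, 15% of the distal regions in DMSO replicate 1 were missing from DMSO replicate 2, and 7.21% in the reverse direction. Between the ACBI1 samples, 34.9% of the distal regions in replicate 1 were missing from replicate 2 and 3.98% in reverse. The shorter ACBI1 list was thus nearly contained in the longer one. Of the 3839 regions with a peak in 1 ACBI1 sample, 3634 had it in replicate 1 and 205 in replicate 2.

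Of 10863 gene-end DMSO regions, 460 (4.23%) were lost and 10087 (92.9%) retained. The 2 ACBI1 samples lacked 4.40% and 6.98% of them, a mean of 5.69% ± 1.82 (SD, n = 2). The share lost differed between the ends of a gene. Regions at a start site were lost in 1.86% of 8120 cases, and regions only at the other end of a gene in 25% of 684. The remaining 2059 gene-end regions, whose genes have no matched start, were lost in 6.70%. Distal regions inside a gene body and between genes were lost at similar shares, 51.1% of 14245 and 49.3% of 13204. The 3100 distal regions at an end of another annotated gene, such as a noncoding RNA, were lost in 29.4%, against 52.9% of the 24349 at no annotated gene end.

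The lost share of distal regions was higher farther from the nearest start site. It was 34.7% within 5 kb (1908 regions), 41.8% from 5 to 10 kb, 44.5% from 10 to 25 kb, 47.3% from 25 to 50 kb, 53% from 50 to 100 kb, 58.8% from 100 to 250 kb and 61.7% beyond 250 kb (2431 regions). Retained regions ranked higher in −log10 q and were wider. In 5 equal groups ordered by the rank of the authors' −log10 q in the DMSO lists, lowest first, 67.9%, 67.1%, 60.5%, 43.4% and 12.2% were lost. In 5 equal groups of width, 89.7% of the narrowest and 15.8% of the widest were lost, and the median width was 387 bp for lost and 769 bp for retained regions. This is the width of the merged region, which at a retained region also spans ACBI1 peaks, so class partly sets width. The order by distance was the same within the highest and the middle group of −log10 q rank. Width was not held equal there, and its median fell from 677 bp within 5 kb to 456 bp beyond 250 kb. Loss went from 4.97% within 5 kb to 20.3% beyond 250 kb among the regions of highest −log10 q, and from 48.8% to 71.3% in the middle group. The median fold enrichment of lost and retained regions was close, at 7.03 and 6.82 in DMSO replicate 1 and 6.99 and 7.03 in replicate 2. Because listing depends on strength, the part of depth and background in these shares was not tested.

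**Figure D3:**
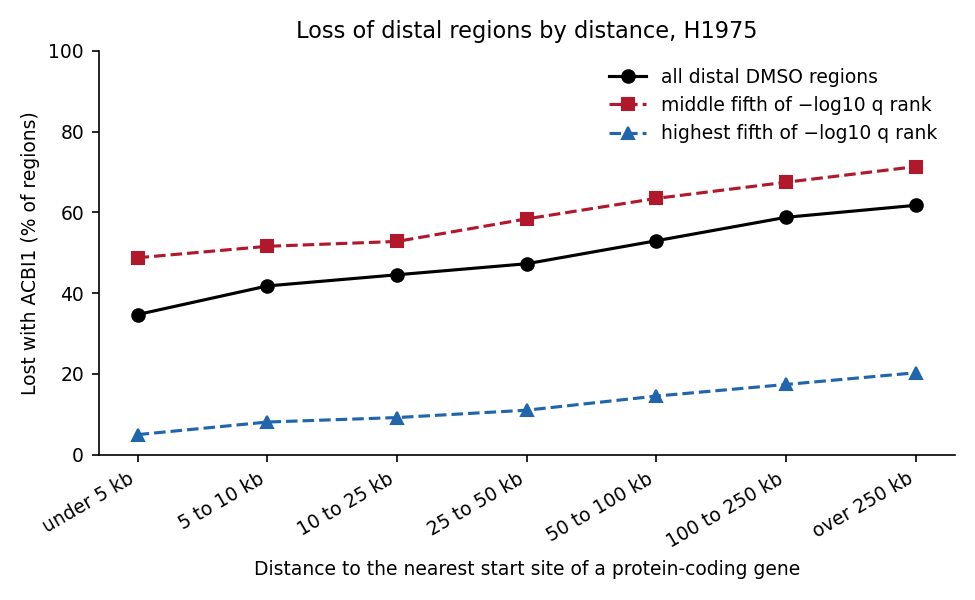
Share of distal DMSO regions lost with ACBI1 (vertical axis, percent) by distance from the nearest start site (horizontal axis, 7 classes), for all regions and for the middle and highest of 5 groups of −log10 q rank. All 3 lines rise with distance, from 34.7% to 61.7% for all regions.

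Chromosome 19, the most gene-dense with 24.8 protein-coding genes per Mb, lost the smallest share of its distal regions, 30.6% of 1254. Chromosomes 22 and 17 followed with 42.3% and 43.0%. The highest shares were on chromosomes 4 (58.4%), 18 (57.7%) and 6 (56.2%), with 4.05, 3.37 and 6.16 genes per Mb.

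The distal regions were then counted around each gene, in its body and 50 kb on either side. Windows of neighbouring genes share regions, so genes are not independent. Of 3217 protein-coding genes with at least 5 distal DMSO regions, 321 (9.98%) lost at least 75% of them, here called mostly lost, and 412 (12.8%) retained at least 75%, called mostly kept. Both counts rest on single samples. Without DMSO replicate 2 there were 576 mostly lost genes, without ACBI1 replicate 1 there were 809, and without ACBI1 replicate 2 there were 777 mostly kept genes. They also depend on the length of the lists and on the minimum number of regions. With equal list lengths 19 genes were mostly lost and 146 mostly kept, and with at least 10 regions 22 and 8. The median gene lost 40% of its regions (quartiles 25% and 60%). All regions were lost at 50 genes and all were retained at 89. Distal peaks were fewer in each ACBI1 sample than in each DMSO sample around 2671 of the 3217 genes (83%), and more around 7.

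Mostly lost genes were long and stood in gene-poor surroundings. Their median length was 104 kb, with 1.21 genes per 100 kb of window, against 21.1 kb and 3.68 genes per 100 kb for mostly kept genes. Of the 364 genes longer than 250 kb, 84 (23.1%) were mostly lost and 4 (1.10%) mostly kept. Of the 465 genes shorter than 10 kb, 36 (7.74%) were mostly lost and 116 (24.9%) mostly kept. A long gene also has a longer window, with distal regions farther from its start. Peaks at the start were kept in both sets. Among genes with a start-site peak in both DMSO samples, the peak was in all 4 samples for 179 of 188 mostly lost genes and for 238 of 250 mostly kept genes. Over all 9614 genes with such a peak, 9263 (96.3%) had it in all 4 samples and 175 (1.82%) in neither ACBI1 sample.

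The 12 genes named as losing most were those of highest lost share among genes with at least 8 distal DMSO regions, so their H1975 values are a description. SLC12A8, a member of the cation-chloride cotransporter family, had 8 and 8 distal peaks with DMSO against 0 and 0 with ACBI1. Around MED27, the Mediator subunit, there were 14 and 12 peaks with DMSO against 1 and 0 with ACBI1, and 11 of its 12 DMSO regions were lost. MCC had 12 and 13 peaks with DMSO against 2 and 1 with ACBI1, and lost 10 of 11. None of the ACBI1 counts of these 3 genes came near the DMSO counts. TANC1, a scaffold protein of synapses, had 12 and 12 peaks with DMSO against 2 and 0 with ACBI1. NPC1, the lysosomal cholesterol exporter mutated in Niemann-Pick disease, had 10 and 10 with DMSO against 3 and 0 with ACBI1. HSPG2, which encodes the basement membrane proteoglycan perlecan, had 10 and 9 with DMSO against 2 and 1 with ACBI1.

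The other 6 genes also had separate groups, which largely follows from the choice by lost share. Among all 3217 genes with at least 5 distal DMSO regions, both ACBI1 counts were below both DMSO counts at 2671 (83%). GRIN2A, an NMDA receptor subunit, had 13 and 11 peaks with DMSO against 1 and 1 with ACBI1. NTRK2, the receptor tyrosine kinase TrkB, had 11 and 10 with DMSO against 2 and 0 with ACBI1. CCBE1, a secreted protein needed for lymphatic vessel growth, had 10 and 9 with DMSO against 1 and 1 with ACBI1. No ACBI1 count of these 3 exceeded 2. FGF13, an intracellular fibroblast growth factor homologue, had 11 and 9 with DMSO against 1 and 1 with ACBI1. DGKI, a diacylglycerol kinase, had 13 and 9 with DMSO against 1 and 1 with ACBI1, and ABTB3 had 9 and 10 with DMSO against 2 and 0 with ACBI1. A start-site peak was present in all 4 samples for every one of the 12 except NTRK2, ABTB3 and DGKI, which had none in any sample.

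The 12 genes of highest retained share had nearly equal numbers of distal peaks in all 4 samples. This largely follows from how they were chosen, so their H1975 values are a description too. SSC5D, a soluble scavenger receptor, had 8 and 10 with DMSO against 9 and 8 with ACBI1. EXD3 had 9 and 8 with DMSO against 11 and 9 with ACBI1. DMSO and ACBI1 counts overlapped at SSC5D and touched at EXD3. SRRM3, a splicing factor of neurons, had 12 and 12 with DMSO against 13 and 10 with ACBI1, and SPTBN4, a beta spectrin, had 10 and 13 with DMSO against 11 and 14 with ACBI1. FOXK1, a forkhead transcription factor, had 9 and 9 with DMSO against 9 and 7 with ACBI1. BAIAP2, an adaptor of the actin cytoskeleton, had 9 and 10 with DMSO against 8 and 9 with ACBI1. OR6S1, an olfactory receptor gene, had 8 peaks in each of the 4 samples. At ZNF213 and NANOS3 the groups were separate, with ACBI1 lower, at 12 and 13 with DMSO against 10 and 11 with ACBI1 and at 10 and 10 with DMSO against 9 and 9 with ACBI1. Also in the set were LOC112268076 and ADAMTS7.

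**Figure D4:**
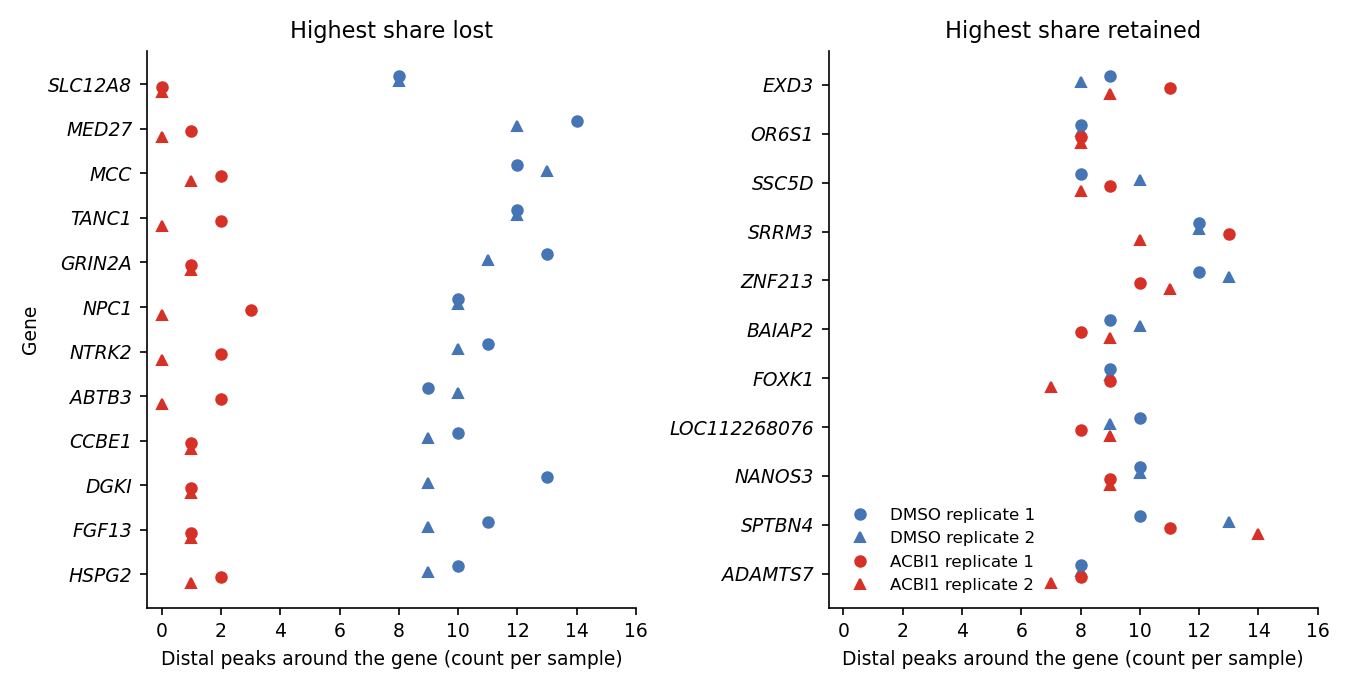
Number of distal peaks around each gene (horizontal axis) in each of the 4 H1975 samples (DMSO blue, ACBI1 red, circles replicate 1 and triangles replicate 2), for the 12 genes of highest lost share (left) and for 11 of the 12 of highest retained share (right). Around the genes on the left ACBI1 counts lie between 0 and 3 and DMSO counts between 8 and 14; on the right counts of both treatments lie between 7 and 14.

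The strongest lost region near SLC12A8 by −log10 q was chr3:125079454-125079939, between genes and 23457 bp from the nearest start site, with a fold enrichment of 9.02 and 9.29 in the DMSO samples. That of MED27, chr9:132042384-132042674, lay inside MED27, with 11.4 and 12.2. That of MCC, chr5:113038722-113039141, lay inside MCC, with 7.21 and 7.65. The strongest retained region of SSC5D, chr19:55503474-55504404, lay inside that gene, with 9.09 and 9.92 with DMSO against 8.73 and 10.1 with ACBI1. That of EXD3, chr9:137310693-137312175, lay inside EXD3, with 4.66 and 4.02 with DMSO against 4.10 and 3.08 with ACBI1. Near OR6S1 it was chr14:20613212-20614413, between genes.

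Lost and retained regions also stood in unbroken rows along chromosomes. Of all distal DMSO regions 50.2% were lost and 35.8% retained, so rows of some length arise by order alone. Whether the rows were longer than that was not tested, and they are given as a description. A row of 19 lost regions lay over 4677 kb of chromosome 8, where UNC5D, a netrin receptor gene, lies. Rows of 16 lost regions lay at chr13:93261902-95115850, from the glypican gene GPC6 to the transporter gene ABCC4, and at chr7:17524342-18459204, which holds SNX13, PRPS1L1 and the histone deacetylase gene HDAC9. The longest retained row held 16 regions at chr9:137021705-137462014, only 440 kb long but with 33 protein-coding genes, EXD3 among them. The next, 15 regions at chr19:12564061-12983986, held 28 genes, among them JUNB, CALR and KLF1. A row of 14 retained regions over 126 kb of chromosome 8 held 0 protein-coding genes.

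The HCC44 samples took no part in choosing these genes, and distal peaks were counted there in the same way. Of the 12 genes named as losing most, 9 had at least 5 distal DMSO regions in HCC44. They lost a median of 90.9% there (66.7% to 100%), and 7 of the 9 were mostly lost. All 12 genes named as retaining most could be counted, with a median loss of 25% (0% to 42.9%), and 5 were mostly kept. SLC12A8 had 10 and 11 distal peaks in the HCC44 DMSO samples and 1 and 2 with ACBI1. MED27 had 14 and 13 with DMSO against 2 and 2 with ACBI1, and NTRK2 had 8 and 7 with DMSO against 2 and 2 with ACBI1. GRIN2A and FGF13 had 0 in every HCC44 sample, so their distal peaks were seen in H1975 and not in HCC44.

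The same counts were made for all genes of both sets. Of the 321 genes mostly lost in H1975, 212 could be counted in HCC44. Their median loss was 76.9%, 113 (53.3%) were mostly lost and 0 mostly kept. Of the 412 genes mostly kept in H1975, 289 could be counted, with a median loss of 28.6%; 84 (29.1%) were mostly kept and 3 mostly lost. The background is the 2375 genes that could be counted in both lines, with a median loss of 57.1% in HCC44, 498 (21%) mostly lost and 147 (6.19%) mostly kept. In HCC44 by itself, 938 of 3992 genes (23.5%) were mostly lost and 232 (5.81%) mostly kept. The log2 change in distal peaks was −1.36 in HCC44 and −1.14 in H1975. An exact permutation test of the difference, −0.21, with labels permuted within lines, gave p = 0.889 over 36 arrangements. Permuting treatment labels assumes no effect of treatment in either line, so the test cannot say whether the lines changed equally.

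Gene groups were compared by pooling the distal DMSO regions around their members, each region counted once. Around all protein-coding genes, 48.2% of 22646 such regions were lost and 37.9% retained, and ACBI1 replicates 1 and 2 lacked 49.0% and 61.4%. Of 36 lists, 13 lay above that lost share and 23 below it. Against the sample's own value for all genes, 6 lists were above and 22 below in both ACBI1 samples. Every one of the 36 lists had fewer distal peaks in each ACBI1 sample than in each DMSO sample. The same held for all protein-coding genes, so this is not particular to the lists. Summed over those genes, distal peaks numbered 54444 and 51531 with DMSO against 33823 and 25354 with ACBI1, a peak counting once for each gene near it.

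**Figure D5:**
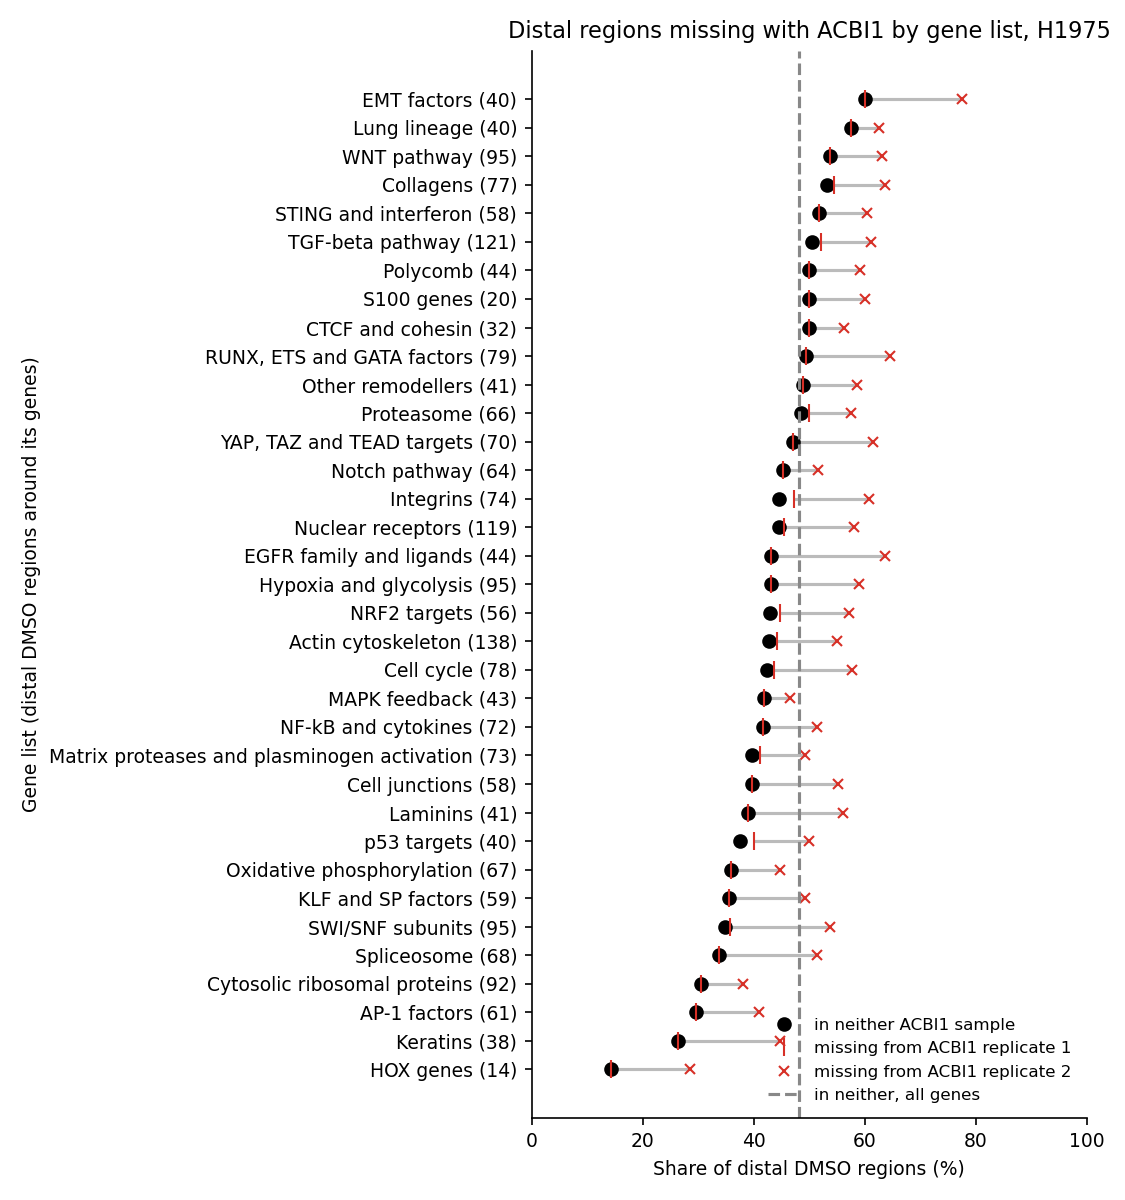
Share of distal DMSO regions around the genes of each of 35 lists (horizontal axis, percent; number of regions in parentheses) that had a peak in neither ACBI1 sample (black), and that were missing from ACBI1 replicate 1 (red line) and replicate 2 (red cross). The dashed line marks the 48.2% lost around all genes; EMT factors (60.0%) stand at the top and HOX genes (14.3%) at the bottom.

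The list of highest loss was that of the factors of epithelial-mesenchymal transition (EMT), with 24 of 40 regions lost (60.0%), and 60.0% and 77.5% missing from the 2 ACBI1 samples. GRHL2, which maintains epithelial identity, had 10 and 9 distal peaks with DMSO against 4 and 1 with ACBI1. SNAI1, a repressor of E-cadherin, had 8 and 10 with DMSO against 5 and 2 with ACBI1. The repressor ZEB2 had 5 and 3 with DMSO against 0 and 0 with ACBI1, and the gene of the filament protein vimentin, VIM, had 5 and 6 with DMSO against 1 and 1 with ACBI1. The groups did not overlap at these 4. Over all genes with distal DMSO regions, both ACBI1 counts were below both DMSO counts at 8496 of 14659 (58%). In the EMT list the groups were separate in this way at 10 of 14 genes. They touched or overlapped at TWIST2, with 2 and 3 with DMSO against 2 and 2 with ACBI1, at FN1, the fibronectin gene, with 1 and 2 against 1 and 0, at OVOL2, an epithelial factor, with 1 and 2 against 2 and 1, and at TWIST1, with 2 and 0 against 0 and 0.

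ARHGAP18, a GTPase-activating protein, had 5 and 5 distal peaks with DMSO against 0 and 0 with ACBI1. The exchange factor DOCK5 had 9 and 8 with DMSO against 2 and 1 with ACBI1, and DOCK9 had 6 and 7 with DMSO against 1 and 1 with ACBI1. RAC1, the GTPase of membrane ruffles, was less affected, with 7 and 7 with DMSO against 5 and 5 with ACBI1. The actin cytoskeleton list lost 42.8% of 138 regions. In it the nonmuscle myosin gene MYH9 had 17 and 18 peaks with DMSO against 11 and 9 with ACBI1, and SVIL, which encodes supervillin, 18 and 17 with DMSO against 6 and 5 with ACBI1.

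The lung lineage list lost 23 of 40 regions (57.5%). SFTPC, the gene of surfactant protein C, had 8 and 7 distal peaks with DMSO against 1 and 0 with ACBI1. SFTPB, that of surfactant protein B, had 8 and 8 with DMSO against 4 and 4 with ACBI1. NKX2-1, the lung lineage factor, had 5 and 6 with DMSO against 5 and 4 with ACBI1, so its groups touched. Within 100 kb in place of 50 kb the list's share was 44.6%. The WNT list lost 53.7% of 95 regions. ROR1, a receptor for WNT5A, had 14 and 13 with DMSO against 2 and 1 with ACBI1, and the corepressor TLE1 had 8 and 6 with DMSO against 1 and 0 with ACBI1. WNT7B, a ligand, had 9 and 8 with DMSO against 7 and 5 with ACBI1.

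The AP-1 factors kept most of the distal regions around their genes, with 18 of 61 lost (29.5%) and 36 retained. FOSB had 6 distal peaks in each of the 4 samples, and JUNB had 7 in each. FOS had 2 and 2 with DMSO against 4 and 2 with ACBI1. The members differed among themselves. FOSL2 had 7 and 8 with DMSO against 4 and 2 with ACBI1, BATF3 6 and 6 with DMSO against 2 and 1 with ACBI1, and MAFF, a small MAF protein, 5 and 5 with DMSO against 1 and 1 with ACBI1. ATF3, a stress-induced factor, had 11 and 13 with DMSO against 6 and 6 with ACBI1. RNA levels of these factors were not analysed here.

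Keratins, the filament proteins of epithelia, lost 10 of 38 regions (26.3%), although 26.3% and 44.7% were missing from the 2 ACBI1 samples. KRT8 had 11 and 11 distal peaks with DMSO against 10 and 8 with ACBI1, while KRT7 had 12 and 10 with DMSO against 5 and 4 with ACBI1. HOX genes, clustered regulators of body position, shared only 14 regions among 39 genes, of which 2 were lost (14.3%). Without ACBI1 replicate 1 their share was 26.7% and the median over lists 57.3%. Within 100 kb these values were 36.8% and 44.8%. HOXA11 had 4 peaks in each of the 4 samples. Genes of cytosolic ribosomal proteins lost 28 of 92 regions (30.4%). RPL18 had 9 and 6 with DMSO against 6 and 7 with ACBI1, and RPS14 had 6 and 6 with DMSO against 5 and 6 with ACBI1. With a minimum fold enrichment of 5 the ribosomal list lost 51.5%, so its low share depended on that choice.

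The genes of the SWI/SNF subunits, the targets' own complexes, lost 33 of 95 regions (34.7%). ACBI1 replicate 1 lacked 35.8% of them and replicate 2 lacked 53.7%, so the share depended on replicate 1. Around all genes the same samples lacked 49.0% and 61.4%, a gap in the same direction. SMARCA4 had 9 and 11 distal peaks with DMSO against 6 and 4 with ACBI1. SMARCA2 had 2 and 2 with DMSO against 2 and 1 with ACBI1, and PBRM1 had 3 and 3 with DMSO against 1 and 1 with ACBI1. ARID1A, the subunit most often mutated in cancer, had 5 and 6 with DMSO against 1 and 2 with ACBI1, whereas BCL7C had 5 and 6 with DMSO against 5 and 5 with ACBI1.

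The series title names the STING pathway, which senses cytosolic DNA. The STING and interferon list lost 30 of 58 regions (51.7%), near the 48.2% lost around all genes. The ACBI1 samples lacked 51.7% and 60.3% of them, against 49.0% and 61.4% around all genes. IFIT3, an interferon-induced antiviral gene, had 4 and 4 distal peaks with DMSO against 0 and 0 with ACBI1. RIGI, a sensor of viral RNA, had 4 and 3 with DMSO against 0 and 0 with ACBI1, and CD274, the gene of PD-L1, had 3 and 3 with DMSO against 0 and 0 with ACBI1. The groups were separate at these 3, as at 58% of all genes with distal DMSO regions. Each of the 3 had fewer than 5 distal DMSO regions. The kinase gene IKBKE lost all 5 of its DMSO regions, with 6 and 6 peaks with DMSO against 3 and 3 with ACBI1, and 2 regions around it were gained. STING1 had 1 and 1 with DMSO against 2 and 1 with ACBI1, CGAS had 1 in each sample, and JAK1 had 7 and 8 with DMSO against 6 and 5 with ACBI1.

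In the list of EGFR and its relatives, EGFR lost 3 of 11 regions, AREG 3 of 3 and HBEGF 3 of 5. EGFR, the driver receptor of this line, had 11 and 11 distal peaks with DMSO against 9 and 6 with ACBI1. AREG, an EGFR ligand, had 4 and 4 with DMSO against 0 and 0 with ACBI1, and the ligand HBEGF had 7 and 7 with DMSO against 3 and 2 with ACBI1. The list lost 43.2% of 44 regions. The TGF-beta list lost 50.4% of 121. SMAD3, its transcription factor, had 14 and 13 with DMSO against 5 and 4 with ACBI1, and SMAD6, an inhibitor, 8 and 8 with DMSO against 3 and 2 with ACBI1. ID1, a target of BMP signals, had 8 and 8 with DMSO against 10 and 6 with ACBI1. The list of YAP, TAZ and TEAD targets lost 47.1% of 70, near the share of all genes, and in it WWTR1, which encodes TAZ, had 12 and 14 with DMSO against 8 and 4 with ACBI1.

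At the cell surface, the integrin list lost 44.6% of 74 regions, the collagens 53.2% of 77 and the laminins 39.0% of 41. ITGA2, a collagen receptor subunit, had 8 and 8 distal peaks with DMSO against 2 and 1 with ACBI1, while ITGA5, a fibronectin receptor subunit, had 11 and 11 with DMSO against 7 and 7 with ACBI1. LAMC1 had 12 and 8 with DMSO against 3 and 2 with ACBI1. LAMA3 had 7 and 6 with DMSO against 5 and 4 with ACBI1 in H1975, but 13 and 13 with DMSO against 1 and 2 with ACBI1 in HCC44, a difference between lines that was not tested. The proteases of matrix lost 39.7% of 73, with PLAU, the urokinase gene, at 10 and 11 with DMSO against 9 and 7 with ACBI1.

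Among transcription factors of other families, RUNX1 had 14 and 14 distal peaks with DMSO against 8 and 5 with ACBI1, and ETV6 had 8 and 6 with DMSO against 1 and 0 with ACBI1. The RUNX, ETS and GATA list lost 49.4% of 79. The KLF and SP factors lost 35.6% of 59, and in that list KLF12 had 10 and 8 with DMSO against 2 and 2 with ACBI1 while KLF11 had 6 and 6 with DMSO against 6 and 5 with ACBI1. Nuclear receptors lost 44.5% of 119. NR4A1, an immediate-early receptor, had 7 and 6 with DMSO against 10 and 5 with ACBI1, and the thyroid hormone receptor gene THRB 6 and 6 with DMSO against 2 and 1 with ACBI1. CDK6, the cell cycle kinase gene, had 16 and 14 with DMSO against 11 and 8 with ACBI1.

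Families formed only by the letters that open a gene symbol had a narrower range, 33.2% to 52.2% lost, than the lists, 14.3% to 60.0%. Of 20 such families, ARHGAP (52.2% of 115 regions), COL (51.1% of 139) and TBC (50% of 110) had the highest lost shares. These lay near the 48.2% lost around all genes. ZNF, the zinc finger genes, had the lowest, 33.2% of 763, followed by WDR with 38.2% of 144 and MYO with 39.0% of 100. The median ZNF gene with at least 5 distal DMSO regions lost 40%, the same as the median over all such genes. Many ZNF genes stand in clusters on chromosome 19, which lost the smallest share of its distal regions (30.6%). Whether position bears on the ZNF share was not tested.

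Each list's share was set beside that of all distal regions in the same groups of −log10 q rank and start-site distance. This comparison was chosen after the data had been seen. For EMT factors the matched share was 51.4% against 60.0% observed and for the lung lineage 49.0% against 57.5%. For keratins it was 44.9% against 26.3%, and for SWI/SNF subunits 46.4% against 34.7%. For ribosomal proteins it was 40.6% against 30.4%, and for AP-1 factors 38.2% against 29.5%. The lost shares of all lists depended on ACBI1 replicate 1, because the list of replicate 2 was nearly contained in it. S100 genes, calcium-binding proteins of epithelia, lost 50% of 20 regions against a matched 39.0%. The same comparison gave 55.2% for mostly lost and 37.2% for mostly kept genes, against observed medians of 80.0% and 14.3%, which the choice of those genes fixed. Over the 36 lists, 23 lost less than their matched share.

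The epithelial label was checked at gene ends. Of 10 epithelial markers, 9 had a peak at an end of the gene in all 4 samples, and SFTPB had none. The immune markers PTPRC and LYZ, the endothelial markers PECAM1, CDH5 and VWF, and the fibroblast markers PDGFRA and LUM had none in any sample. CD14, KDR, COL1A1 and PDGFRB had one in every sample, CD3E in the DMSO samples only and COL1A2 in ACBI1 replicate 1 only.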

How the data were processed

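Accessibility was measured by ATAC-seq in 4 H1975 samples, with 4 HCC44 samples for comparison. The authors deposited a separate broadPeak list for each sample, with no pooled list. The deposited score column repeats the authors' −log10 q on another scale and was left aside. The fold enrichment is the authors' deposited ratio, and −log10 p and −log10 q are as deposited by the authors. BWA and hg38 are named in the submitters' processing notes. The peak caller and filters are not given in the sources used here. Depth and background of a library move both measures, which therefore only ranked or filtered peaks within a list.

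Merged regions were classed by presence, as defined above. Gene positions and promoters came from RefSeq GRCh38.p14 tables, with no genome sequence, so motifs were sought only in promoters. Windows of gene lists held 781 of 783 listed symbols. Named genes were the 12 of highest lost and 12 of highest retained share with at least 8 regions and no overlapping windows, the gene with most regions and those of highest and lowest lost share in each list, and the targets of ACBI1. Other genes in the text were chosen after their values were seen. A few named items are not reported here. Members and lists were chosen with earlier results of these data known. Sample values were tested by exact permutation, two-sided. The functions were tested on simulated data. Alternatives were other merging, cover, −log10 q (20) and fold (5) minima, equal list lengths, other gene ends and windows, other minimum counts and thresholds, shares matched on −log10 q rank, a replicate block, and omission of single replicates. Python 3.11.15, numpy 2.4.6, pandas 2.3.3, scipy 1.17.1 and matplotlib 3.10.9 were used.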

Additional observations from a re-analysis of the deposited data

How the results depend on the processing

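Depth in reads is unknown, so a weak region near the calling limit can be missed, and the lost shares depend on how many peaks each list holds. Distal peaks were fewer with ACBI1 in every alternative, from a log2 change of −0.16 with equal list lengths, which removes most of the difference by construction, to −1.40 without ACBI1 replicate 1, and −0.89 without ACBI1 replicate 2. With a replicate block it was −1.14 with an exact permutation p = 0.5, the smallest that pairing allows. Same-numbered samples deviated together only weakly (r = 0.08 over 3217 genes), so the numbers are not shown to pair samples.

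The distal share missing was 40.6% with equal list lengths. The gene-end share was 11.2% with 50% cover, 7.90% at a minimum fold of 5, 1.60% with equal list lengths, 15.7% with gene ends of 5 kb and 12.1% with all annotated genes. Mostly lost genes numbered 19 with equal list lengths, 146 with windows of 10 kb, 511 with 100 kb, 932 with at least 3 regions, 22 with at least 10, 1101 at a threshold over 50%, and 344 to 809 leaving out 1 replicate. Mostly kept genes numbered, in the same order, 146, 45, 930, 1237, 8, 1107 and 399 to 777. They numbered 144 with 50% cover, 209 at a minimum −log10 q of 20, 70 at a minimum fold of 5, 126 with gene ends of 5 kb and 257 with all annotated genes. The median loss per gene was 57.1% at a minimum fold of 5 and 42.9% to 60.0% leaving out 1 replicate. The median over lists was 43.2%, 25.9% with equal list lengths, and 44.4% to 57.3% leaving out 1 replicate. The shares matched on −log10 q rank were 50.1% and 49.9%, and 46.5% and 46.2% with distance as well. The HCC44 median of the genes named as losing most was 95.0% at a minimum −log10 q of 20, 90.0% at a minimum fold of 5 and with gene ends of 5 kb, 85.7% with equal list lengths, 91.7% with all annotated genes, 87.5% and 84.6% with windows of 10 and 100 kb, and 87.3% to 91.7% leaving out 1 replicate. The cause of these shifts was not tested.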

Other observations

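Regions with a peak in both ACBI1 samples and in neither DMSO sample were few. There were 564 distal and 88 gene-end ones, with a median width of 350 bp, and 1353 protein-coding genes had at least 1 in their window. TNRC18 had 4, and AMPH, PDCD6 and SDHA had 3 each. AMPH, which encodes the endocytic protein amphiphysin, had 4 and 3 distal peaks with DMSO and 5 and 5 with ACBI1. FLNA, which encodes the actin cross-linker filamin A, had 2 such regions, with 2 and 3 distal peaks with DMSO and 6 and 5 with ACBI1. SDHA, a subunit of succinate dehydrogenase, lost 5 of its 6 DMSO regions and still had 4 distal peaks in each ACBI1 sample, against 6 in each DMSO sample.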
